A study of Mus musculus with 57 samples.

Results

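The genes described here are 10 transcription factor genes that mark the sclerotome, the dermomyotome and the paraxial mesoderm of the mouse embryo: *Pax1*, *Pax9*, *Nkx3-2*, *Uncx*, *Meox1*, *Meox2*, *Tcf15*, *Foxc1*, *Foxc2* and *Twist1*. They were chosen by gene name, and all 10 were found among the 56860 genes of each deposited table. Their levels were followed first in cervico-thoracic somites of 2 stages, E10.5 and E12.5, then in 5 other contexts, in wild-type (wt) embryos and in embryos without functional *Hoxa5*.

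The study applied bulk RNA-seq to 57 libraries from 7 contexts to ask how the loss of *Hoxa5* changes the transcriptome of tissues that are abnormal in the mutants. The somite samples held the axial tissue of the C3 to T2 levels, with limb buds, chest organs and neural tube taken off, from 4 wt and 3 *Hoxa5*-/- embryos at E10.5 and 4 of each genotype at E12.5. At E18.5 the brown fat between the shoulder blades (interscapular brown adipose tissue, iBAT) had 5 libraries per genotype, and trachea, lung and diaphragm at E15.5 and lung at E12.5 had 4 per genotype. All embryos were of the 129/Sv background, and the mutants were homozygous for a *Hoxa5* null allele carrying a neomycin cassette inside the homeobox, so the rest of the locus could still be transcribed and counted. The day a plug was found counted as E0.5, and the study describes the replicates as separate embryos. Somite and iBAT libraries were sequenced as paired-end 150-base reads at a different centre from the respiratory libraries, which were single-end 100-base reads, so tissue and centre cannot be told apart between these sets.

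Somites are blocks of paraxial mesoderm that form in pairs beside the neural tube. Their ventral part becomes the sclerotome, the source of vertebrae and ribs, in response to Sonic hedgehog from notochord and floor plate, while their dorsal part remains epithelial as the dermomyotome, the source of skeletal muscle, dermis and part of the brown fat. *Pax1* and *Pax9* encode paired-box factors of the ventral sclerotome, *Nkx3-2* (also *Bapx1*) encodes a homeodomain factor that acts with them in cartilage formation, and *Uncx* encodes a homeodomain factor of the posterior part of each sclerotome, needed for pedicles and proximal ribs. *Meox1* and *Meox2* encode homeodomain factors of the whole somite with later roles in sclerotome, in limb muscle and, for *Meox2*, in vessels. *Tcf15* (paraxis) encodes a basic helix-loop-helix factor needed to form epithelial somites. *Foxc1* and *Foxc2* encode forkhead factors of paraxial mesoderm and sclerotome, and *Twist1* encodes a basic helix-loop-helix factor of mesenchyme that also binds the E-boxes of myogenic genes.

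Gene-assigned totals ran from 18369905 to 72991481 counts per library, and from 23364458 to 28234711 in the 15 somite libraries. *Hoxa5* exon reads were lower in the mutants in all 7 contexts without overlap of the groups, with log2 fold changes between -0.92 in somites at E10.5, where the level went from 186 ± 33.7 TPM (SD, n = 4) to 102 ± 14.4 TPM (n = 3), and -1.94 in iBAT. In the somites at E10.5, wt replicate 3 stood apart from the other wt libraries: it held the highest wt level for 9 of the 10 genes and the lowest for *Meox2*, and results that rest on it are given with and without it. All 10 genes had a mean of at least 1 TPM (a level scaled by exon length and library total) in each of the 4 somite groups. That level alone does not set somites apart, since 9 of them reached it in wt trachea and 8 in wt diaphragm. Neural tube and neuron markers were also present at E10.5, with all 10 genes of that list above 1 TPM and a summed level of 556 to 677 TPM in the wt libraries. Because the samples were bulk tissue, fewer cells of a type and less RNA per cell cannot be told apart in any comparison that follows.

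Promoters are shown for *Uncx* and *Nkx3-2*, sclerotome genes that moved in opposite directions between the somite stages, and for *Pax9*, a sclerotome gene that was not called between them. They are the 250 bases before the RefSeq start on the coding strand in GRCm38.p6, a different build from that of the counts, and 7 of the 10 genes had an entry (all but *Meox1*, *Tcf15* and *Foxc2*). The *Uncx* window lies at chr5:139543648-139543897 on the plus strand, the *Nkx3-2* window at chr5:41764221-41764470 on the minus strand and the *Pax9* window at chr12:56695221-56695470 on the plus strand. Capitals mark E-boxes (CANNTG, the core bound by basic helix-loop-helix factors such as those of *Tcf15* and *Twist1*) and the homeodomain core TAAT, searched on both strands.
Uncx: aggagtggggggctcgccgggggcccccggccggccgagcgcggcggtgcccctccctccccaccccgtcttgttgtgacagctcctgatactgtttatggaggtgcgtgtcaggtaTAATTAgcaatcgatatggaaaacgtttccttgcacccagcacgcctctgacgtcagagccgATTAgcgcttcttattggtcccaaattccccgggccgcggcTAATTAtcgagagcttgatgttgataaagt
Nkx3-2: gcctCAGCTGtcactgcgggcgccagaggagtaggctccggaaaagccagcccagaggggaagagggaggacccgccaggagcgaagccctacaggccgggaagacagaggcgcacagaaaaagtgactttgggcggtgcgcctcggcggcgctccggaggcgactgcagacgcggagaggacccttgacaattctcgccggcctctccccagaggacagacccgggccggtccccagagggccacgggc
Pax9: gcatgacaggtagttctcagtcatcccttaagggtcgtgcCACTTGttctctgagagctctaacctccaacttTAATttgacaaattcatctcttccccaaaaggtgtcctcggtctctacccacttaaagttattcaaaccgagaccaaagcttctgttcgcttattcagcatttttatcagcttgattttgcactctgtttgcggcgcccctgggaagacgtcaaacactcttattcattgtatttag
The *Uncx* window held no E-box and 5 matches to the homeodomain core, which overlap in 2 places as palindromes. The *Nkx3-2* window held 1 E-box, the *Pax9* window 1 E-box and 1 homeodomain core. Of 32851 RefSeq promoter windows of this length, 66.2% held CANNTG and 54.9% held TAAT, so these matches are frequent and describe the sequence only.

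In wt somites the 10 genes spanned mean levels from 5.81 TPM for *Uncx* to 331 TPM for *Twist1*, both at E12.5. At E10.5 *Twist1* was highest at 265 ± 41.2 TPM (SD, n = 4), followed by *Meox1* at 147 ± 16.3, *Tcf15* at 84.3 ± 20.6 and *Meox2* at 61.1 ± 8.51. The sclerotome genes were lower, *Pax1* at 40.8 ± 13.03 TPM, *Uncx* at 28.7 ± 7.78, *Nkx3-2* at 12.6 ± 1.85 and *Pax9* at 10.9 ± 3.03. *Foxc1* stood at 43.6 ± 8.17 TPM and *Foxc2* at 32.7 ± 3.36. Summed over the 10 genes, the wt median was 710 TPM at E10.5, with libraries from 626 to 861, and 725 TPM at E12.5, with libraries from 705 to 758, so the sum stayed within its spread while its members diverged.

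**Figure D1:**
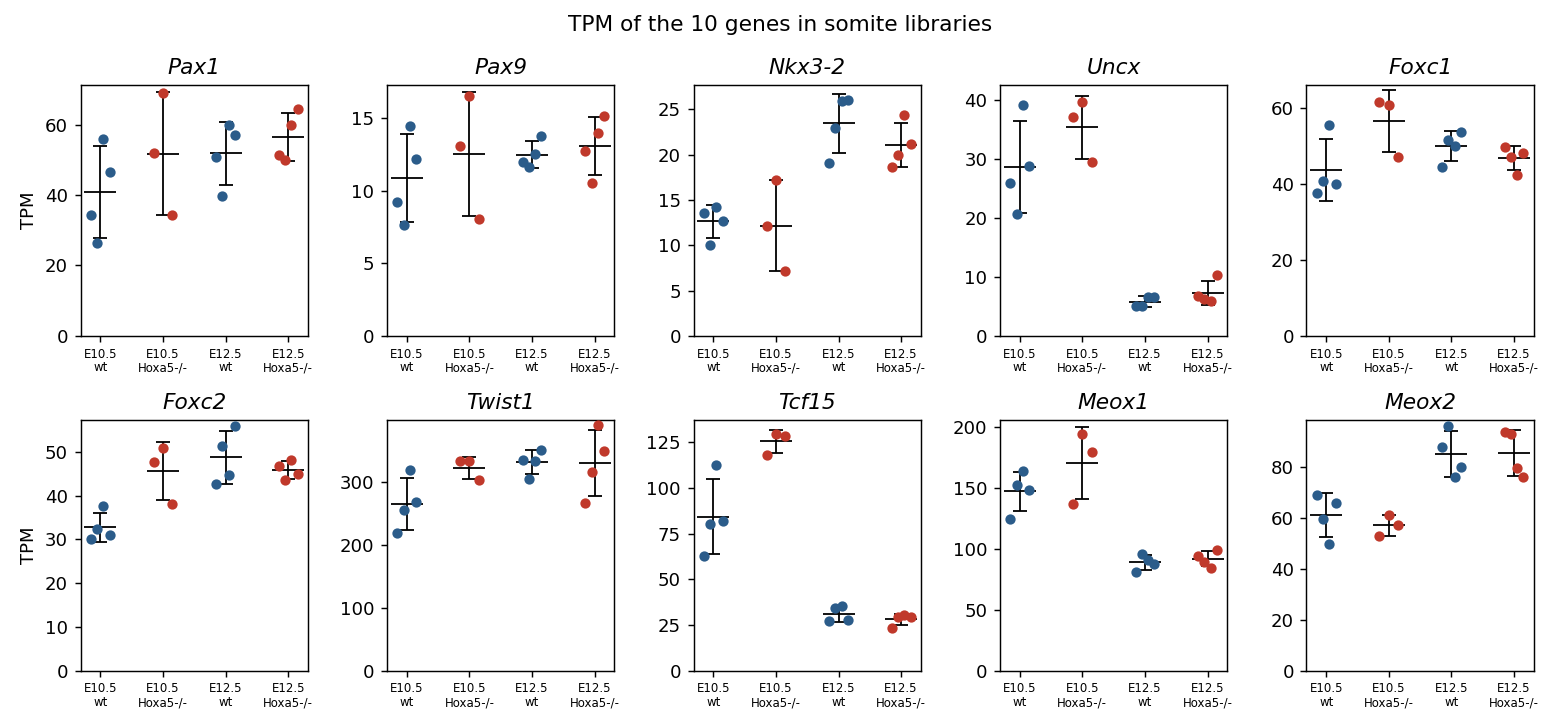
Levels of the 10 genes in somites in TPM (vertical axes, each from 0 and scaled to its own gene) for every library at E10.5 and E12.5, with wt in blue and Hoxa5-/- in red; the line and bars give mean ± SD. *Uncx*, *Tcf15* and *Meox1* lay lower and *Nkx3-2* higher at E12.5 in both genotypes, without overlap between stages in wt.

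From E10.5 to E12.5, *Uncx*, *Tcf15* and *Meox1* fell in wt somites and *Nkx3-2* rose. With edgeR's quasi-likelihood test, Benjamini-Hochberg adjustment over 19773 genes and a limit of 1.5-fold, 4 of the 10 genes were called, against 42.6% of all genes tested in this comparison. The levels of 6 genes did not overlap between the stages (*Uncx*, *Tcf15*, *Meox1*, *Nkx3-2*, *Meox2* and *Foxc2*), against 56.2% of all genes. Both counts lie near what held for genes in general between these stages.

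*Uncx*, the posterior sclerotome factor, had the largest change of the 10. Its 4 wt libraries measured 25.98, 20.7, 39.2 and 28.9 TPM at E10.5 and 5.07, 4.996, 6.54 and 6.62 TPM at E12.5. Every early library was thus more than 3 times above every late one, with a log2 fold change of -2.36 ± 0.17 (SE; adjusted p = 4.4e-08). *Nkx3-2* moved the other way. Its wt libraries measured 13.5, 10.02, 14.3 and 12.7 TPM at E10.5 and 19.1, 22.9, 25.9 and 25.99 TPM at E12.5, a log2 fold change of 0.83 ± 0.14 (adjusted p = 0.00021) with no overlap.

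*Pax1* and *Pax9*, the ventral sclerotome pair, were not called. *Pax1* measured 34.4, 26.3, 55.8 and 46.6 TPM in the early and 50.7, 39.7, 60.0 and 56.9 TPM in the late wt libraries, and *Pax9* 9.23, 7.63, 14.4 and 12.2 TPM and then 11.99, 11.6, 12.51 and 13.8 TPM. The stages overlapped for both genes. Their log2 fold changes were 0.29 ± 0.17 (adjusted p = 0.16) and 0.14 ± 0.15 (adjusted p = 0.41). Of the 4 sclerotome genes, 1 therefore fell, 1 rose and 2 did not pass the test.

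*Tcf15*, needed for epithelial somites, fell from 62.6, 80.0, 112 and 82.1 TPM at E10.5 to 27.4, 34.6, 35.2 and 27.5 TPM at E12.5, a log2 fold change of -1.49 ± 0.15 (adjusted p = 1.3e-06). *Meox1* fell from 125, 152, 163 and 148 TPM to 80.9, 95.6, 91.1 and 87.3 TPM, a log2 fold change of -0.79 ± 0.08 (adjusted p = 2.0e-06). No late library reached an early library for either gene. *Meox2* went the other way, from 69.2, 59.6, 49.8 and 65.8 TPM to 88.1, 96.3, 76.0 and 80.0 TPM, also without overlap, but its log2 fold change of 0.40 ± 0.12 (adjusted p = 0.012) lay under the fold limit.

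*Foxc2* and *Twist1* likewise passed the adjusted p but not 1.5-fold. *Foxc2* measured 29.99, 32.3, 37.6 and 30.99 TPM at E10.5 and 42.8, 51.5, 44.7 and 56.0 TPM at E12.5 (log2 fold change 0.51 ± 0.10, adjusted p = 0.00075). *Twist1* measured 219, 256, 318 and 268 TPM and then 335, 305, 333 and 351 TPM (0.26 ± 0.08, adjusted p = 0.015), with 1 early library above the lowest late one. *Foxc1* was not called (0.14 ± 0.10, adjusted p = 0.24). Without the fold limit 7 of the 10 genes passed, against 63.3% of all genes.

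The same 4 genes were called between the stages in the *Hoxa5*-/- somites, a comparison of separate libraries in which 36.9% of all genes were called. *Uncx* fell by 2.29 on the log2 scale, *Tcf15* by 2.18 and *Meox1* by 0.91, and *Nkx3-2* rose by 0.78. *Foxc2* had a log2 fold change of 0.00 in the mutants against 0.51 in wt, and *Foxc1* one of -0.28 (adjusted p = 0.013) against 0.14. These differences between genotypes are tested as an interaction further on.

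**Figure D2:**
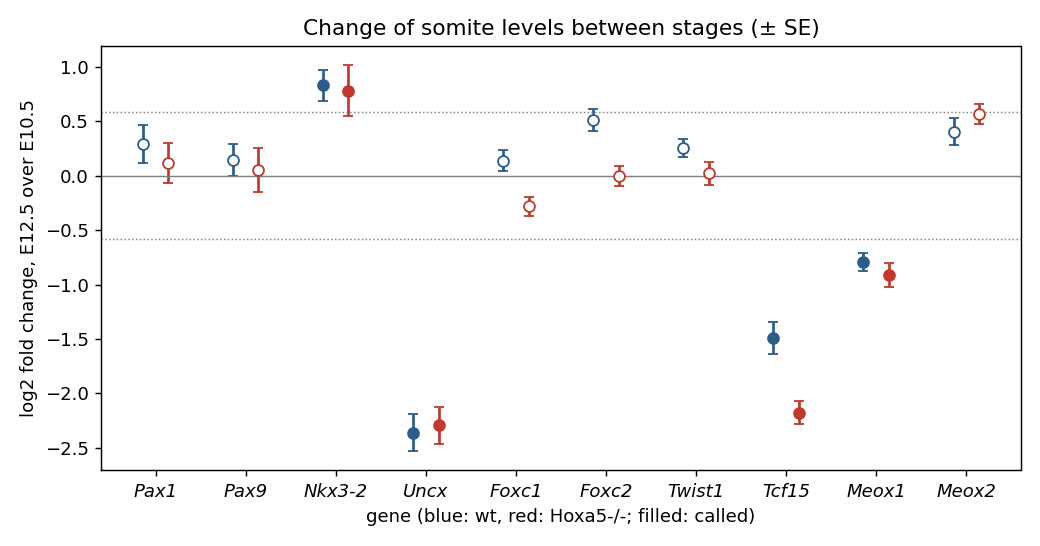
Log2 fold change (vertical axis) of each gene (horizontal axis) from E10.5 to E12.5 in somites, with bars of 1 SE. Positive values are higher at E12.5, with wt in blue and Hoxa5-/- in red. Filled points were called and the dotted lines mark 1.5-fold; *Uncx*, *Tcf15*, *Meox1* and *Nkx3-2* were called in both genotypes.

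Genes that act with or after the 10 factors were followed between the stages, where 42.6% of all genes tested were called (4768 higher, 3648 lower). All 10 tested genes of the chondrogenic and vertebral list rose in wt somites, among them *Matn1*, a cartilage matrix gene (log2 fold change 11.49, from 0.0669 to 225 TPM), *Acan*, encoding aggrecan (7.50, from 0.696 to 129 TPM), *Comp* (6.59), *Col2a1* (2.92, from 158 to 1241 TPM) and *Sox9*, the chondrocyte determinant (0.76, from 84.8 to 149 TPM). All 7 tested genes of the syndetome and tendon list rose, led by *Tnmd* (9.30), *Kera* (6.96) and *Fmod* (4.04), with *Scx*, the tendon progenitor factor, at 2.95. The median log2 fold changes were 3.15 and 2.95 in these lists, against -0.04 over all genes tested.

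The dermomyotome and myotome list was mixed, with 4 genes higher, 3 lower and 8 not called of 15 tested and a median of 0.02. Of all genes tested, 42.6% were called in either direction. *Pax3*, the dermomyotome and muscle progenitor factor, fell from 37.7 to 1.58 TPM (-4.64), and *Myf6* (-1.72) and *Sim1* (-1.61) also fell. *Myod1* (4.98, from 5.24 to 169 TPM), *Myog* (3.21) and the Wnt modulator gene *Dact1* (from 23.2 to 68.5 TPM) were among those that rose, while *Pax7* had a log2 fold change of -0.14 (adjusted p = 0.32). Of 9 tested genes for presomitic mesoderm and segmentation, 3 fell, the Notch ligand genes *Dll3* (-5.59) and *Dll1* (-2.51) and the retinoic acid synthesis gene *Aldh1a2* (-1.38), and 3 rose, *Cer1* (4.18), *Ripply1* (3.40) and *Tbx18* (1.67).

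Among 16 tested sclerotome inducers and responses, 6 rose and 4 fell, against 42.6% of all genes called in either direction. *Nog* (2.41), *Sfrp2* (2.25), *Chrd* (1.71), the hedgehog co-receptor genes *Cdon* (1.15) and *Boc* (0.71), and *Gas1* (0.82) rose, whereas *Shh* (-3.65, from 22.6 to 1.86 TPM), *Zic1* (-1.31) and *Zic2* (-0.90) were among those that fell. The hedgehog receptor and target gene *Ptch1* (-0.38) and the effector *Gli1* (0.56) stayed under the fold limit. Of 13 tested partners and targets of *Twist1*, 6 rose and none fell, near the 42.6% of all genes called. *Snai2* (1.86), *Prrx1* (1.78) and *Twist2* (1.76) led, while the E-protein genes *Tcf3* (-0.02) and *Tcf12* (-0.35) were not called.

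Levels of cell-type markers in the dissected tissue moved with stage. All 10 neural tube and neuron markers fell in wt (median log2 fold change -5.39), with the summed level going from 556 to 677 TPM at E10.5 to 69.5 to 148 TPM at E12.5, and the 3 notochord and floor plate markers fell too. The 4 cartilage markers rose, from a sum of 195 to 312 TPM to a sum of 1445 to 2068 TPM, as did the 6 skeletal muscle markers, from 326 to 602 TPM to 3617 to 5204 TPM. Their part in the changes of the 10 genes was not tested.

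The loss of *Hoxa5* changed none of the 10 genes by the call rule in somites at either stage. At E10.5 edgeR called 0 of 10, against 0.0215% of all 18573 genes tested (4 genes), and 4 of the 10 had an unadjusted p under 0.05, against 2360 genes. DESeq2 also called 0 of the 10, against 0.0969% of all genes. At E12.5 edgeR and DESeq2 called 0 of 10, against 0.00529% (1 gene) and 0.0106% of all genes. None of the 10 had an unadjusted p under 0.05 in edgeR, against 613 of 18906 genes.

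At E10.5 the estimates lay mostly above 0: the log2 fold change of *Hoxa5*-/- over wt was positive for 8 of the 10 genes, with a median of 0.25 against -0.01 over all genes. *Tcf15* had the largest, 0.54 ± 0.14 (SE; adjusted p = 0.39), with wt libraries at 62.6, 80.0, 112 and 82.1 TPM and mutant libraries at 118, 130 and 129 TPM. *Foxc2* followed at 0.43 ± 0.11 (adjusted p = 0.39), with wt libraries at 29.99, 32.3, 37.6 and 30.99 TPM and mutant libraries at 47.7, 50.9 and 38.2 TPM. All mutant libraries lay above all wt libraries for these 2 genes, and 7.37% of all genes had groups without overlap in either direction. *Foxc1* (0.33 ± 0.12, adjusted p = 0.39) and *Twist1* (0.24 ± 0.09, adjusted p = 0.39) had overlapping libraries.

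The sclerotome genes showed wide spread at E10.5. *Pax1* measured 51.8, 69.1 and 34.3 TPM in the mutants, against 26.3 to 55.8 TPM in wt (0.30 ± 0.24, adjusted p = 0.53), and *Uncx* 37.1, 39.8 and 29.5 TPM against 20.7 to 39.2 TPM (0.26 ± 0.17, adjusted p = 0.46). *Pax9* (0.16 ± 0.23) and *Nkx3-2* (-0.11 ± 0.25) had errors larger than their estimates, and both changed sign when 1 mutant library was left out, *Pax9* to -0.10 without replicate 2 and *Nkx3-2* to 0.14 without replicate 3. *Meox1* (0.17 ± 0.13, adjusted p = 0.51) and *Meox2* (-0.16 ± 0.14, adjusted p = 0.58) were not called. At E12.5 the 10 estimates ran from -0.15 for *Tcf15* and *Nkx3-2* to 0.33 ± 0.18 for *Uncx*, with a median of 0.01.

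The result at E10.5 depended on wt replicate 3. Without it, edgeR called 386 genes, 2.07% of 18664, and the list of 10 had 1 call, *Tcf15*, with a log2 fold change of 0.68 (adjusted p = 0.015). *Foxc1* (0.44, adjusted p = 0.019), *Foxc2* (0.48, adjusted p = 0.024) and *Twist1* (0.31, adjusted p = 0.025) then passed the adjusted p but stayed under 1.5-fold. Leaving out any other library at E10.5 gave no call among the 10.

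Other gene lists moved beside these estimates at E10.5. No gene was called between the genotypes at either stage in any of the pathway and cell-type lists, and the medians of the 6 pathway lists at E10.5 lay between 0.09 and 0.38, against -0.01 over all genes. The summed dermomyotome and myotome list measured 248, 273, 409 and 308 TPM in wt and 423, 379 and 363 TPM in the mutants, the limb and lateral plate markers 104 to 137 TPM in wt and 145 to 149 TPM in the mutants, and the neural crest and glia markers 68.3 to 95.5 TPM and 102 to 114 TPM. The last 2 sums did not overlap between the genotypes. The neural tube and neuron markers did overlap, at 556 to 677 TPM in wt and 565 to 609 TPM in the mutants. The surface and foregut epithelium sums overlapped too, at 183 to 320 TPM and 260 to 338 TPM, with all 7 tested markers at a positive log2 fold change (*Trp63*, 0.77; *Cdh1*, 0.68). All 8 blood markers had a negative one (*Hbb-bh1*, 7242 TPM in wt and 5026 TPM in the mutants), and their sums overlapped. Their part in the estimates of the 10 genes was not tested.

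An interaction term in a fit of all 15 somite libraries asked if the genotypes differed by another amount at E12.5 than at E10.5. None of the 10 genes was called, against 0.0147% of 20419 genes (3 genes), while 3 of the 10 and 2918 genes had an unadjusted p under 0.05. The effect at E12.5 minus that at E10.5 was -0.68 ± 0.20 for *Tcf15*, -0.51 ± 0.14 for *Foxc2* and -0.42 ± 0.14 for *Foxc1* on the log2 scale (adjusted p = 0.33 for each). Without wt E10.5 replicate 3 these 3 genes were called, *Tcf15* at -0.81 (adjusted p = 0.0099), *Foxc1* at -0.52 (adjusted p = 0.013) and *Foxc2* at -0.55 (adjusted p = 0.024), when 12.6% of all genes were. Without a filter on low genes *Tcf15* alone was called, with 0.765% of all genes.

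Outside the somites, the genes with a mean of at least 1 TPM differed among the contexts. In wt iBAT 4 genes had a mean of at least 1 TPM, *Tcf15* (43.1 ± 12.2 TPM, SD, n = 5), *Meox2* (36.2 ± 4.15), *Twist1* (31.8 ± 3.62) and *Meox1* (13.7 ± 1.94). *Nkx3-2* and *Uncx* had 0 counts there in all 5 wt libraries. The wt diaphragm held 8 genes at this level, the trachea 9 and the lung 6 at each stage. *Uncx* was below 1 TPM in every context but the somites.

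The order of the contexts differed among the genes. *Pax1* was highest in somites at E12.5 (51.8 ± 8.94 TPM, n = 4), which overlapped those at E10.5, followed without overlap by diaphragm (2.61 ± 0.380 TPM) and trachea (1.43 ± 0.538 TPM). Lung and iBAT came last, with means under 0.04 TPM. *Pax9* had the same leading contexts, then trachea (3.39 ± 1.36 TPM) and diaphragm (1.35 ± 1.60 TPM), which overlapped. *Nkx3-2* went from 23.5 ± 3.24 TPM in somites at E12.5 to 12.6 ± 1.85 TPM at E10.5, 1.02 ± 0.407 TPM in trachea and 0.175 ± 0.0479 TPM in lung at E12.5, each apart from the next.

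*Meox2* had its highest wt mean in lung at E15.5, where it reached 103 ± 4.86 TPM (n = 4), above every library of the somites at E12.5 (85.1 ± 9.02 TPM). Diaphragm (70.2 ± 7.45 TPM) and somites at E10.5 came next and overlapped. *Meox1* fell in order from somites at E10.5 through somites at E12.5 to diaphragm (28.6 ± 1.78 TPM), each apart, and its other 4 contexts, between 13.7 and 17.9 TPM, overlapped their neighbours. *Tcf15* in iBAT lay below somites at E10.5 and overlapped somites at E12.5 (31.2 ± 4.32 TPM), and all other contexts were at or below 19.9 TPM. Scaled by TMM and exon length in place of TPM, the order of iBAT and somites at E10.5 turned for *Tcf15* (62.2 in iBAT and 61.1 in somites) and for *Meox2* (52.7 and 45.03). *Tcf15* in somites at E12.5 then stood at 21.5. Some orders across the centres turned too: diaphragm passed somites at E12.5 for *Meox2* (81 and 58.7) and *Tcf15* (22.5 and 21.5). TMM factors were estimated separately in each table, so that scaling is not shared across the centres.

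*Foxc2* in trachea (36.5 ± 7.55 TPM) lay between the somites at E12.5 (48.7 ± 6.14 TPM) and at E10.5 and overlapped both, whereas *Foxc1* in trachea (29.9 ± 5.54 TPM) lay below all somite libraries. *Twist1* fell from the somites to trachea (79.9 ± 6.82 TPM), diaphragm (51.6 ± 7.09 TPM), iBAT, lung at E12.5 (5.89 ± 2.30 TPM) and lung at E15.5 (1.97 ± 0.220 TPM), each apart from the next. The orders that cross the 2 sequencing centres rest on TPM alone and carry the difference in centre and read type.

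**Figure D3:**
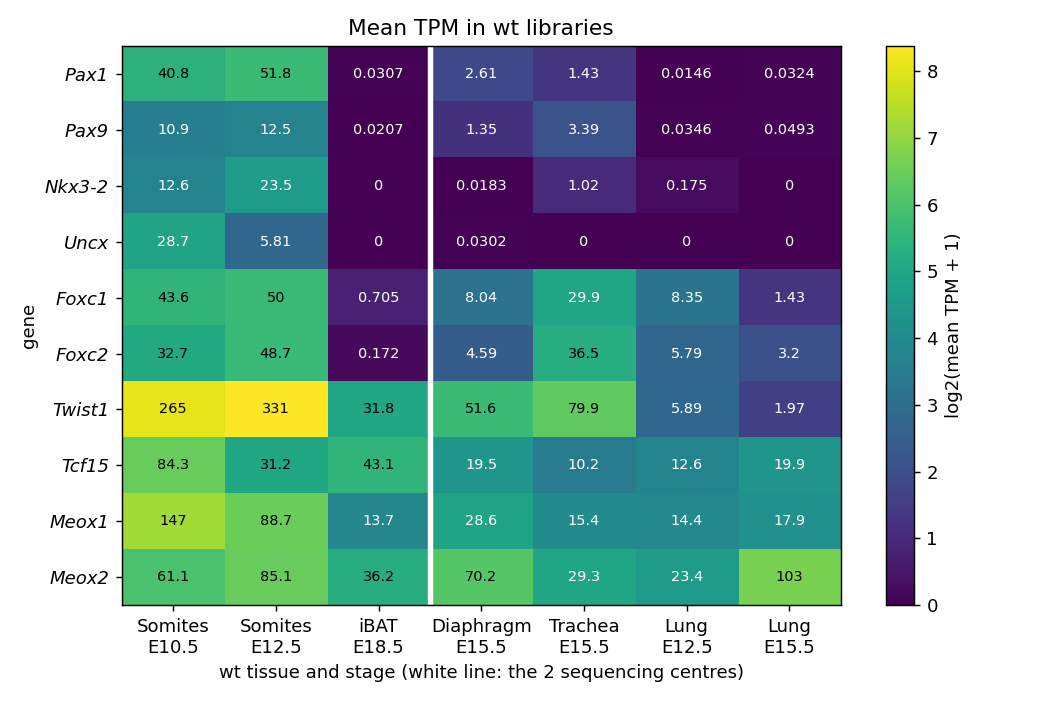
Mean wt level of the 10 genes (rows) in the 7 contexts (columns), coloured by log2(TPM + 1) with the mean TPM printed in each cell; the white line separates the 2 sequencing centres. *Meox2* was highest in lung at E15.5, and *Uncx* was above 1 TPM in somites alone.

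In wt lung, *Meox2* rose and the forkhead genes and *Twist1* fell from E12.5 to E15.5. The test called 6 of the 10, against 23.1% of all genes. In this and the other comparisons among the wt respiratory tissues, 9 of the 10 were tested. A gene was tested where its mean reached 1 TPM in any of those wt groups. *Nkx3-2*, *Pax1* and *Pax9* lay below 1 TPM in wt lung at both stages, so they were tested through their levels in other tissues. *Meox2* went from 23.4 ± 6.34 to 103 ± 4.86 TPM (SD, n = 4; log2 fold change 2.11 ± 0.15, SE), *Foxc1* from 8.35 ± 3.36 to 1.43 ± 0.311 TPM (-2.58 ± 0.26), *Twist1* from 5.89 ± 2.30 to 1.97 ± 0.220 TPM (-1.61 ± 0.22) and *Foxc2* from 5.79 ± 1.17 to 3.20 ± 0.472 TPM (-0.88 ± 0.20). *Tcf15* rose by 0.64 ± 0.14, a call that was lost below the fold limit without lung E12.5 wt replicate 2 (0.53, with 21.4% of all genes called) or lung E15.5 wt replicate 1 (0.55, with 22.9%). *Nkx3-2* had 10 counts over the E12.5 libraries and 0 at E15.5, at least 3.89-fold lower against a floor of 3 counts over the group. In the mutant lungs *Meox2*, *Foxc1*, *Foxc2* and *Twist1* were called as well, against 19.2% of all genes, and *Tcf15* (0.42, adjusted p = 0.11) and *Nkx3-2* (-2.56, adjusted p = 0.067) were not.

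At E15.5 the wt trachea held more *Pax1*, *Pax9*, *Nkx3-2*, *Twist1*, *Foxc1* and *Foxc2* than the lung, while *Uncx* had 0 counts in both. The test called 8 of the 10 in wt, against 30.8% of all genes. *Pax9* (5.90 ± 0.997), *Pax1* (5.395 ± 0.55), *Twist1* (5.24 ± 0.22), *Foxc1* (4.30 ± 0.28) and *Foxc2* (3.43 ± 0.21) were higher in trachea on the log2 scale, and *Nkx3-2* had 57 counts there against 0, at least 23.5-fold higher. *Meox2* (-1.89 ± 0.15) and *Tcf15* (-1.05 ± 0.15) were lower. The sizes for *Pax1* and *Pax9* rest on few lung reads, with 5 counts of *Pax1* over the wt lung libraries and a mean of 0.0493 TPM of *Pax9*. In the mutants 26.9% of all genes were called and *Tcf15* had a log2 fold change of -0.22 (adjusted p = 0.38).

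The diaphragm, a muscle with progenitors from cervical somites, differed from the lung in 6 of the 10 genes, against 35.7% of all genes. *Pax1* (6.62 ± 0.54), *Twist1* (4.97 ± 0.22), *Pax9* (4.92 ± 1.01), *Foxc1* (2.77 ± 0.27), *Meox1* (0.96 ± 0.22) and *Foxc2* (0.80 ± 0.20) were higher in wt diaphragm. Few wt lung reads lay on *Pax1* and *Pax9* here too. *Pax9* stood at 3.85 without diaphragm wt replicate 2, its highest library. In the mutants, where 35.3% of all genes were called, *Pax9* (2.10) and *Foxc2* (0.63) were not among the calls. With library totals in place of TMM scaling, *Foxc2* in wt had a log2 fold change of 0.58 and lost its call, and the calls over all genes went from 4129 higher and 3183 lower to 3379 higher and 4832 lower.

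Against the trachea, the wt diaphragm differed in 7 of the 10 genes, with 33.4% of all genes called. *Meox2* (1.62 ± 0.15), *Tcf15* (1.30 ± 0.15), *Meox1* (1.25 ± 0.22) and *Pax1* (1.22 ± 0.35) were higher in diaphragm, and *Foxc2* (-2.63 ± 0.20) and *Foxc1* (-1.53 ± 0.24) were lower. *Nkx3-2* had 57 counts in trachea and 1 in diaphragm, a ratio of 57.1 with an exact 95% interval from 9.85 to 2296 for counting error only. With library totals the calls over all genes went from 3296 higher and 3544 lower in diaphragm to 2167 and 5342. *Pax9* was not called (-0.99 ± 0.70, adjusted p = 0.26), and was called without diaphragm wt replicate 2 (-2.06, adjusted p = 0.026, with 32.6% of all genes called) and in the mutants (-4.61, with 35.7%). Without trachea wt replicate 2, *Nkx3-2* fell below the minimum level and was not tested in either comparison with trachea, where 32.7% of all genes were called against diaphragm and 29.4% against lung.

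Between wt iBAT and wt somites at E12.5, 9 of the 10 genes were called, against 66.3% of all genes. *Pax1* (-9.50 ± 0.28), *Pax9* (-7.91 ± 0.33), *Foxc2* (-6.92 ± 0.18), *Foxc1* (-4.93 ± 0.13), *Twist1* (-2.17 ± 0.07) and *Meox1* (-1.49 ± 0.09) were lower in iBAT on the log2 scale. Few iBAT reads lay on the first 2, and *Pax1* reached -10.35 without iBAT wt replicate 5 and *Pax9* -8.55 without replicate 4. *Nkx3-2* went from 1185 counts over the somite libraries to 0, at least 352-fold lower, and *Uncx* from 535 to 0, at least 159-fold lower. *Tcf15* was higher in iBAT (1.66 ± 0.16), though its TPM ranges overlapped, and *Meox2* was not called (-0.03 ± 0.08, adjusted p = 0.77). The scaling mattered here: with library totals the median of all genes moved from -0.163 to -0.805, *Tcf15* stood at 1.02 and *Meox2* at -0.67 (adjusted p = 8.3e-06), the only call gained, while the calls over all genes went from 6002 higher and 6839 lower in iBAT to 4102 and 10160. In the mutant libraries, where 65.7% of all genes were called, *Meox2* had a log2 fold change of 0.36 (adjusted p = 0.0021), under the fold limit.

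Outside the somites, edgeR called none of the 10 genes between the genotypes. The shares of all genes called were 0.0156% in trachea, 0.0798% in lung at E12.5, 0.124% in lung at E15.5, 0.594% in diaphragm and 0.00657% in iBAT, with 9, 6, 6, 8 and 4 of the 10 genes tested. Of those, 0, 3, 2, 4 and 1 had an unadjusted p under 0.05. Over all genes the counts were 1288 of 19220, 1406 of 17548, 1123 of 17777, 2348 of 18019 and 376 of 15212. DESeq2 called 1 of the 10 in lung at E15.5 (0.467% of all genes) and 2 in diaphragm (2.25%).

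In the diaphragm, *Pax9* was lower and *Pax1* higher in the mutants, and the 2 genes differed in how steady they were. *Pax9* measured 1.71, 3.47, 0.0994 and 0.137 TPM in the wt libraries and 0.0800, 0.0447, 0.103 and 0.0805 TPM in the mutants. The 2 high wt libraries carried the difference, and the other 2 lay close to the mutants, with 1 of them below a mutant library. The log2 fold change was -4.11 ± 1.13 (edgeR, adjusted p = 0.17) and DESeq2 called it (adjusted p = 0.0019).

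*Pax1* measured 2.92, 2.63, 2.07 and 2.83 TPM in wt diaphragm and 4.08, 4.16, 3.24 and 4.38 TPM in the mutants. *Meox1* measured 29.1, 27.5, 30.9 and 26.9 TPM in wt and 37.9, 44.4, 50.1 and 36.3 TPM in the mutants. Neither gene's groups overlapped, as held for 6.87% of all genes. The log2 fold change was 0.59 ± 0.16 for *Pax1* (edgeR, adjusted p = 0.17; DESeq2, adjusted p = 0.038, a call) and 0.55 ± 0.11 for *Meox1* (edgeR, adjusted p = 0.070; DESeq2, adjusted p = 0.00033, under 1.5-fold). *Twist1* had a log2 fold change of 0.31 ± 0.12 (adjusted p = 0.32).

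Markers of other tissues varied among the diaphragm libraries. The summed surface and foregut epithelium list was 136, 199, 306 and 41.4 TPM in wt replicates 1 to 4 and 44.8, 30.1, 114 and 89.4 TPM in the mutants, and the pharyngeal pouch, thymus and parathyroid list was 48.0 to 62.2 TPM in wt and 12.9 to 33.4 TPM in the mutants. *Pax9* is also a gene of foregut and pharyngeal epithelium. The neural crest and glia list was 55.6 to 86.8 TPM in wt and 35.2 to 42.7 TPM in the mutants, lung epithelium markers reached 549 TPM in wt replicate 3, and cartilage markers reached 299 TPM in mutant replicate 3. Beside *Foxc2*, whose diaphragm level stayed at 4.59 ± 0.876 TPM in wt and 4.46 ± 1.38 TPM in the mutants, its neighbours *Foxf1* (23.7 to 4.99 TPM, log2 fold change -2.23, adjusted p = 0.070) and *Fendrr* (17.2 to 2.32 TPM, -2.87, adjusted p = 0.090) had lower mutant means. *Foxl1*, also beside *Foxc2*, went from 4.09 to 0.462 TPM (-3.12; edgeR, adjusted p = 0.10), while *Mthfsd* had a log2 fold change of -0.11. The part of the other tissues in these differences was not tested.

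In lung at E15.5, *Foxc1* was higher and *Tcf15* lower in every mutant library than in every wt library, as held in some direction for 2.96% of all genes. *Foxc1* measured 1.74, 1.43, 1.001 and 1.53 TPM in wt and 3.49, 4.80, 2.24 and 2.98 TPM in the mutants (log2 fold change 1.34 ± 0.26; edgeR, adjusted p = 0.15; DESeq2, adjusted p = 0.00031, a call). Without mutant replicate 3 edgeR called it too (1.53, adjusted p = 0.023), when 0.208% of all genes were called. *Tcf15* measured 23.1, 18.9, 18.2 and 19.3 TPM in wt and 12.8, 16.3, 14.2 and 8.20 TPM in the mutants (-0.55 ± 0.14, adjusted p = 0.32). Mutant replicate 4 stood apart: it had the lowest total of the E15.5 lungs (20692978 counts) and the lowest *Tcf15* and *Meox2* (69.8 TPM) and, at 1822 TPM against 3534 TPM in the lowest wt library, the lowest summed lung epithelium markers. Leaving out each library in turn moved the log2 fold change of *Tcf15* between -0.64 and -0.47. The endothelium markers summed to 797 to 1001 TPM in wt and 423 to 695 TPM in the mutants, without overlap. Their part was not tested.

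In lung at E12.5, 1 mutant library held the highest levels of *Twist1*, *Foxc1* and *Foxc2*. *Twist1* measured 9.12, 5.91, 3.96 and 4.59 TPM in wt and 7.36, 5.15, 33.0 and 16.2 TPM in the mutants (1.39 ± 0.51, adjusted p = 0.55), and the log2 fold change was 0.68 without mutant replicate 3. *Foxc1* measured 12.53, 9.57, 5.97 and 5.32 TPM in wt and 13.5, 11.2, 20.1 and 14.6 TPM in the mutants (0.83 ± 0.27, adjusted p = 0.45). That library, mutant replicate 3, held 13.8 TPM of *Foxc2* (0.62 ± 0.25, adjusted p = 0.59), and the groups overlapped in each case. Neural crest and glia markers summed to 50.1 TPM in that library and to 20.2 to 30.3 TPM in the other mutant lungs, and their part was not tested.

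In iBAT, *Meox2* ran from 30.9 to 40.5 TPM in wt (median 38.1) and from 38.6 to 54.2 TPM in the mutants (median 41.2), a log2 fold change of 0.32 ± 0.08 with an unadjusted p of 0.0014 and an adjusted p of 0.9999 over 15212 genes. In trachea, *Pax1* (-0.73 ± 0.48, adjusted p = 0.78), *Pax9* (-0.48) and *Nkx3-2* (0.59 ± 0.80, adjusted p = 0.87) varied with single libraries. *Nkx3-2* reached 4.29 TPM in mutant replicate 3 against 0.148 to 1.20 TPM in the other mutants, and its log2 fold change was -0.73 without that library. The same library had the highest summed cartilage markers, 3231 TPM against 671 TPM in the lowest mutant trachea. The part of cartilage was not tested.

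**Figure D4:**
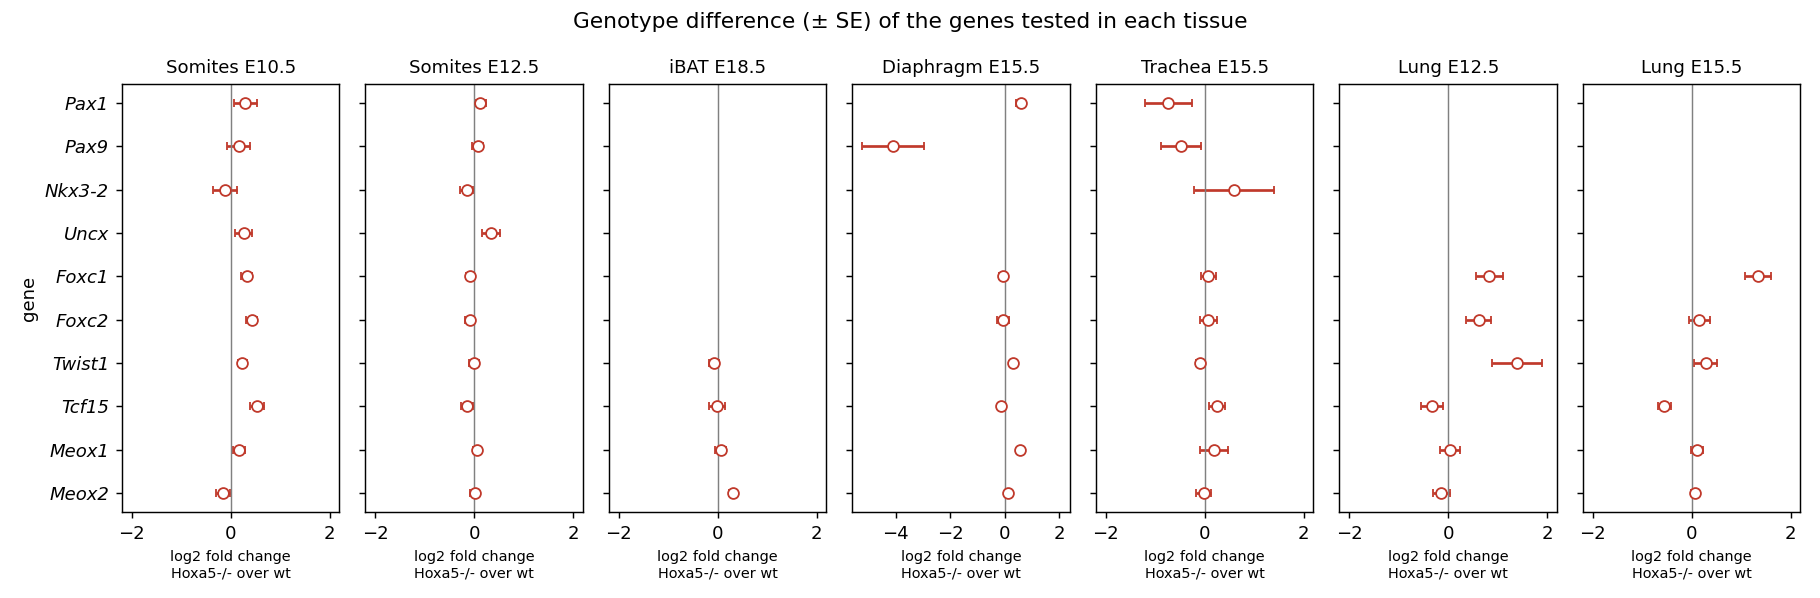
Log2 fold change of Hoxa5-/- over wt (horizontal axes) with bars of 1 SE for each of the 10 genes tested in the 7 contexts; the diaphragm axis is wider. None was called by edgeR; the largest estimates were -4.11 for *Pax9* in diaphragm, 1.39 for *Twist1* in lung at E12.5 (0.68 without 1 library) and 1.34 for *Foxc1* in lung at E15.5.

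Ratios within the 3 pairs of related genes do not depend on library scaling, except through the 0.1 TPM added for the tests. In wt somites *Pax1* over *Pax9* in TPM was 3.72 on average at E10.5 and 4.14 at E12.5, while it was 0.442 in trachea and ran from 0.758 to 20.8 in diaphragm. *Meox1* over *Meox2* fell from 2.47 ± 0.622 (SD, n = 4) at E10.5 to 1.05 ± 0.122 at E12.5, with ranges of 1.80 to 3.28 and 0.918 to 1.20, and was 0.175 in lung at E15.5. *Foxc1* over *Foxc2* was 1.33 and 1.03 in the somite stages, 1.79 in diaphragm and 0.825 in trachea.

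Between the genotypes 17 such ratios were compared by an exact two-sided permutation test, and none reached an adjusted p of 0.05, the lowest being 0.135. With 4 libraries against 4 or 3 the smallest p this test can give is 0.0286, and 3 comparisons reached it. *Pax1* over *Pax9* did so in somites at E10.5, with wt ratios of 3.45 to 3.87 below mutant ratios of 3.96 to 4.28. It did so in diaphragm too, 2.67 higher on the log2 scale in the mutants. That size depends on the 0.1 TPM added, because mutant *Pax9* lay near that level. The wt log2 ratios in diaphragm ran from -0.39 to 3.62. The other was *Foxc1* over *Foxc2* in lung at E15.5 (0.443 ± 0.0553 in wt, 1.03 ± 0.271 in the mutants). *Meox1* over *Meox2* in iBAT was 0.377 ± 0.0197 in wt and 0.318 ± 0.0477 in the mutants (n = 5 each, exact permutation p = 0.0317).

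**Figure D5:**
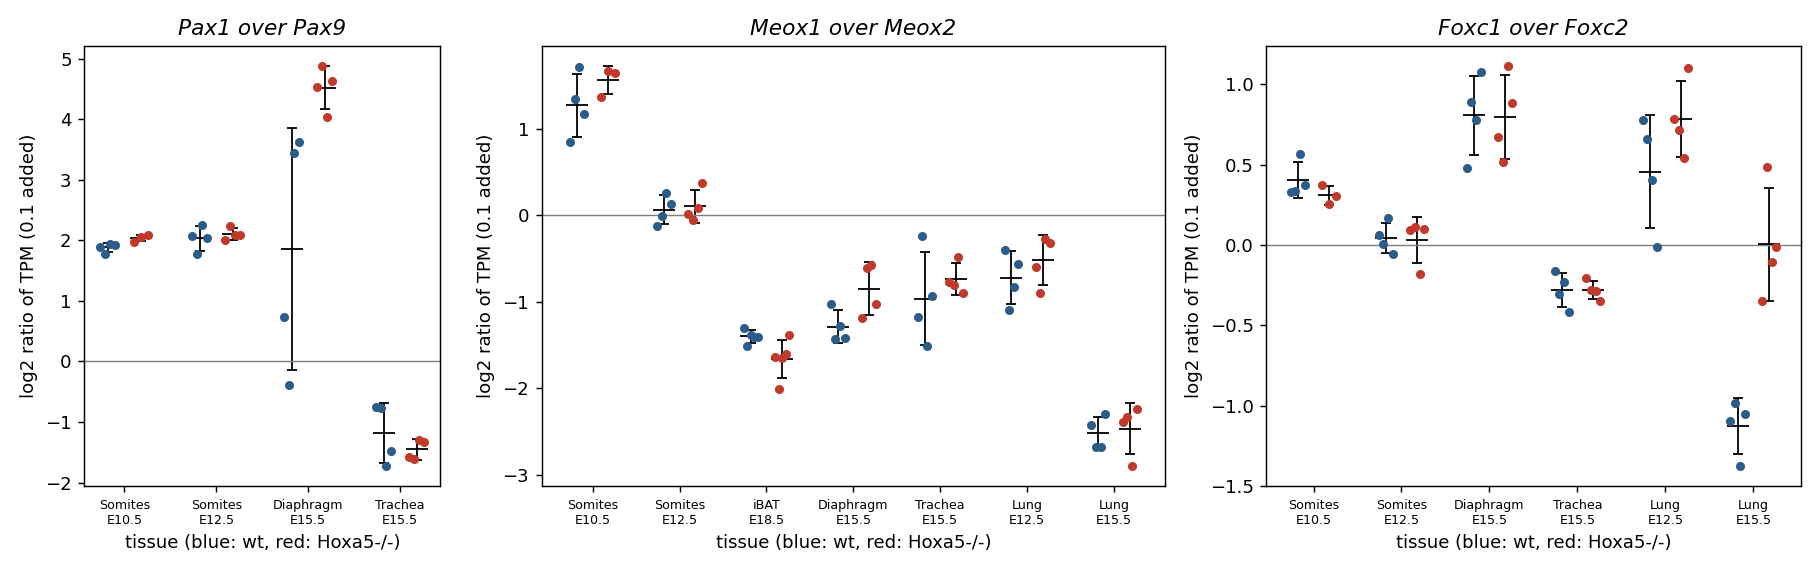
Log2 ratio of the TPM of related genes (0.1 TPM added to each) in every library of the contexts where they were compared, wt in blue and Hoxa5-/- in red, with mean ± SD; the panels show *Pax1* over *Pax9*, *Meox1* over *Meox2* and *Foxc1* over *Foxc2*. *Meox1* over *Meox2* was highest in somites at E10.5 and lowest in lung at E15.5.

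Among the 4 sclerotome genes, with all somite libraries of a stage, *Pax1* and *Pax9* had the closest relation and *Nkx3-2* with *Uncx* the weakest. Over the 7 libraries at E10.5, *Pax1* and *Pax9* had Pearson's r = 0.98 (exact permutation p = 0.000198, adjusted p = 0.00238 over the 12 relations computed) and Spearman's rho = 1 (exact permutation p = 0.000397, adjusted p = 0.00476), and r was again 0.98 without the 2 libraries farthest from the median of *Pax1*. *Pax1* and *Uncx* had r = 0.94 (exact permutation p = 0.00437, adjusted p = 0.0262) and 0.86 without 2 libraries. *Nkx3-2* and *Uncx* had r = 0.50 (exact permutation p = 0.259, adjusted p = 0.35), and no relation of *Nkx3-2* reached an adjusted p under 0.05 at either stage. Over the 8 libraries at E12.5, *Pax1* and *Pax9* had r = 0.72 (exact permutation p = 0.0396, adjusted p = 0.0951) and rho = 0.83 (exact permutation p = 0.0154, adjusted p = 0.0461), *Pax1* and *Uncx* had r = 0.71 (exact permutation p = 0.061, adjusted p = 0.117) and 0.29 without 2 libraries, and *Nkx3-2* had r = 0.30 with *Pax1*, 0.35 with *Pax9* and 0.0009 with *Uncx*. The order at E12.5 depended on the libraries: without 2 of them *Pax1* had r = 0.92 with *Nkx3-2* and 0.72 with *Pax9*. At E10.5 *Nkx3-2* had r = 0.71 with *Pax1* and 0.80 with *Pax9* (exact permutation, adjusted p = 0.12 and 0.057). Without 2 libraries these were 0.56 and 0.57. These relations were computed after the levels had been seen, pool both genotypes, and share whatever differed between dissections.

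In GRCm39, the build of the counts, *Pax1* lies at chr2:147203845-147235215 (+), *Pax9* at chr12:56738552-56759607 (+), *Nkx3-2* at chr5:41918826-41921844 (-) and *Uncx* at chr5:139529249-139533934 (+). *Meox1* lies at chr11:101768336-101785200 (-), *Meox2* at chr12:37158539-37229533 (+), *Tcf15* at chr2:151985481-151991017 (+), *Foxc1* at chr13:31990616-31996459 (+), *Foxc2* at chr8:121842910-121845634 (+) and *Twist1* at chr12:34007670-34009828 (+). Levels were summed over the exons of each gene. Antisense or opposite-strand genes overlap 3 of them, *AI646519* at *Pax1* (6.71 TPM at E10.5 and 4.58 at E12.5 in wt somites), *Gm15524* and *Slc25a21* at *Pax9* (6.83 to 3.36 and 2.52 to 0.424 TPM) and *Gm11551* at *Meox1* (11.2 to 2.97 TPM). The counting's strand setting is not given in the sources used here, so reads of the overlapping exons cannot be assigned with certainty. *Gm11551* fell with *Meox1* between the stages (log2 fold change -1.97), and *Gm15524* (-1.07) and *Slc25a21* (-2.63) fell while *Pax9* was not called. Within 50 kb, *Scrt2* beside *Tcf15* (from 37.4 to 5.24 TPM) and *Ferd3l* beside *Twist1* (from 8.81 to 0.304 TPM) fell between the stages. *Gm40383* beside *Twist1* (-2.18) and *Foxf1* (-1.39) and *Foxl1* (-0.88) beside *Foxc2* fell too. *Gmds* (0.66) and *Gm11379* (2.49) beside *Foxc1* rose. Of all genes tested between these stages, 42.6% were called. No neighbour was called between the genotypes in somites.

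Across the 29 wt libraries of all 7 contexts, the genes whose log2(TPM + 1) followed each factor most closely were, by Pearson's r over 22802 genes, *Sim1* (0.995) and *2610035F20Rik* (0.99) for *Uncx*, *Norad* (0.99) and *Wnt3* (0.98) for *Nkx3-2*, *C1ql4* (0.97) and *Wnt9b* (0.97) for *Pax1*, and *Sncg* (0.95) and *Spock1* (0.94) for *Pax9*. *Hoxd1* (0.96) and *Wnt9b* (0.96) were nearest to *Meox1*, *Gm9118* (0.92) and *Dusp4* (0.91) to *Tcf15*, and *Vim* (0.76) and *Gm56457* (0.75) to *Meox2*, the lowest of the 10. *Sult4a1* (0.98) and *Bmerb1* (0.98) were nearest to *Foxc1*, *Scube1* (0.99) and *Moxd1* (0.98) to *Foxc2*, and *Ebf3* (0.97) and *Lix1* (0.95) to *Twist1*. The libraries fall into contexts and share centre and depth, so these values describe patterns across tissues.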

How the data were processed

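Poly(A) RNA from 57 libraries was sequenced. According to the labels and the study's methods, trimming (Trim Galore 0.6.5), alignment to GRCm39 (STAR 2.7.9a) and counting (featureCounts 2.0.3) were done by the authors on an Ensembl annotation curated for *Hox* genes; the strand setting is not given in the sources used here. The deposited raw counts per gene, in 1 table for the respiratory tissues and another for somites and iBAT, were used for all tests. The deposited TPM values, in which the authors scaled counts by exon length and library total, were used for levels and ratios, and TPM recomputed from the counts agreed within 2.9e-11. No libraries held identical values, and 0 columns lacked a sample.

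Counts were tested in each table with edgeR 4.0.16 (TMM scaling, quasi-likelihood test, R 4.3.3), for genes with a mean of at least 1 TPM in a group of the fit, with Benjamini-Hochberg adjustment over all genes tested. Genes were called at an adjusted p under 0.05 where they also changed at least 1.5-fold, a limit not applied to the interaction. The tissue comparisons in the respiratory table were fitted over all wt contexts together. SE is the log2 fold change divided by the square root of F. Paralog ratios used 0.1 TPM added and exact permutation tests (scipy 1.17.1). The 10 genes and the lists were chosen with earlier results of these data known. All 10 genes were named in each comparison, and from each list the called genes with the largest changes in either direction, with a few others chosen after their values were seen. Alternatives were DESeq2 1.42.0, other filters and fold limits, a replicate block, leaving out each library, the mutant libraries for wt comparisons and, added after seeing the data, library totals in place of TMM. The edgeR step was tested on simulated data, and the DESeq2 step was not. P-values measure the spread between these embryos, and intervals cover counting error only. The replicate numbers did not meet the rule for pairing. Some genes of the lists are counted but not reported by name here.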

Additional observations from a re-analysis of the deposited data

Results flagged for a closer look

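Of 94 groups of 4 or 5 libraries examined, 6 held a library far from the rest by Dixon's criterion, and chance flags about 1 group in 20. In iBAT, *Meox1* reached 17.1 TPM in mutant replicate 5 against 12.6 to 13.4 TPM in the other mutants. In trachea, *Meox1* reached 23.4 TPM in wt replicate 2 against 12.4 to 13.02 TPM. In lung at E12.5, *Tcf15* was low in wt replicate 2, at 9.51 TPM against 13.5 to 13.7 TPM, and *Foxc2* was high in mutant replicate 3, at 13.8 TPM against 6.76 to 7.82 TPM. In somites at E10.5, *Foxc1* was high in wt replicate 3, at 55.7 TPM against 37.8 to 40.8 TPM, the library whose omission altered the genotype result at that stage. In diaphragm, *Foxc1* was high in wt replicate 2, at 9.60 TPM against 7.44 to 7.63 TPM, and that library also held the highest wt *Pax9*.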

How the results depend on the processing

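Of the counts of called genes in each comparison, 93 of 99 held within 1.5 times under the alternatives other than leaving out a library, and no fold change of a called gene changed sign. In lung at E15.5, where edgeR called 0 of the 10 genes between genotypes, DESeq2 called 1 and the replicate block called 1, each time *Foxc1* (1.33 with the block, adjusted p = 0.0089, when 0.585% of all genes were called), and leaving out each library gave 0 to 1. In diaphragm, DESeq2 called 2 and the replicate block called 1, *Pax1* (0.60, adjusted p = 0.047, when 1.99% of all genes were called). In somites at E10.5, leaving out each library gave 0 to 1. Without a fold limit the wt somite stages gave 7 calls. The interaction gave 1 call without a filter (*Tcf15*, -0.67, adjusted p = 0.023, with 0.765% of 41561 genes called), and 0 to 3 when each library was left out. The cause of these changes was not tested. Over all genes, leaving out each library gave 1 to 386 calls in somites at E10.5, 30 to 139 in diaphragm and 5 to 37 in lung at E15.5. The replicate numbers are shared between genotypes, but in no context did every pair exceed a correlation of 0.1 (0 of 3 pairs in somites at E10.5, 2 of 4 at E12.5, 4 of 5 in iBAT, 3 of 4 in diaphragm), and in no context did every library correlate best with its own number. The iBAT sample names also share leading numbers between genotypes, whose meaning the labels do not give: with that number as a block, 0 of the 4 genes tested were called and *Meox2* stood at 0.32 (adjusted p = 0.9993), and with the replicate block the *Meox1* over *Meox2* ratio in iBAT had an adjusted p of 0.53. With the replicate block the calls over all genes were 104 in lung at E15.5 against 22 without it, and 358 in diaphragm against 107. Levels scaled by TMM and exon length in place of TPM moved some wt means, such as *Twist1* in somites at E12.5 from 331 to 228 and *Meox2* in iBAT from 36.2 to 52.7. Where a gene had under 10 counts in both genotypes, such as *Nkx3-2* in iBAT, the depth could not show a difference between them.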
